A study of Danio rerio with 16 samples.

Results

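The genes of fatty acid oxidation and of the peroxisome proliferator-activated receptors (PPARs) were described in whole zebrafish embryos after an injection of insulin. The set was a list of 36 gene symbols matched to the symbols of the count tables. Of these, 28 were found in 29 of 31452 rows, because pparab had a pair of rows. The 8 symbols without a row of that name were ppara, cpt1aa, cpt1ab, pdk2a, pdk2b, pdk3b, acsl1a and acsl1b. All 29 rows passed the filter on low counts, among 21650 rows that did.

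ABTL embryos were injected in the caudal aorta at 4 days post fertilization. The injection was 1 nl of either recombinant human insulin or phosphate-buffered saline (PBS), the control. RNA of 10 pooled embryos made each library, and the 16 libraries formed 4 groups of 4. These were PBS at 0.5 hours post injection (hpi), insulin at 0.5 hpi, PBS at 4 hpi and insulin at 4 hpi. The labels name no mutation or transgene, and in them only the agent and the time set the groups apart. The sequencing lanes in the file headers also differ between the groups, as given below. The libraries held whole bodies, and markers of liver, intestine, skeletal muscle, heart and red blood cells were all detected. In such bulk samples fewer cells of a type and less RNA per cell cannot be told apart.

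Fatty acids that enter a mitochondrion are first activated to acyl-CoA, passed across its membranes as carnitine esters, and then shortened by the repeated steps of beta-oxidation. PPAR alpha and PPAR delta are nuclear receptors that bind fatty acids and raise the transcription of many of these genes, with the help of PGC-1 coactivators. In mammals the program is known for its rise in fasting and for its restraint by insulin in the fed state. Zebrafish keep a pair of copies of several of these genes from the genome duplication of bony fish. How reads that match both copies were counted is not given in the sources used here.

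Library totals were 6535173 to 9628705 counts. A library pair, PBS 0.5 hpi replicates 2 and 3, differed in 89 of 22287 genes (0.399%), against 3.17% to 42.4% in the other pairs within a group. They were kept as separate libraries, and a fit with the pair summed was an alternative. Another 4 libraries stood apart, with wdr90 and si:dkey-15h8.1 each under 10 CPM (counts per 1000000). These were PBS 0.5 hpi replicate 1, insulin 0.5 hpi replicates 1 and 2, and insulin 4 hpi replicate 1, and results are given with and without them.

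Below, levels are CPM in replicates 1 to 4, or their mean ± SD over the 4 libraries of a group, and are compared between groups and not between genes. Changes are log2 ratios ± SE of insulin to PBS, or of 4 hpi to 0.5 hpi, from 1 edgeR quasi-likelihood model of all 16 libraries. The SE was derived from the test, as the size of the change over the square root of its F statistic. It is approximate, above all for changes near 0. Adjusted p values are Benjamini-Hochberg over all genes tested, and a gene is said to have risen or fallen where that value was under 0.05.

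At 4 hpi, genes that burn fatty acids and genes that control that program differed between insulin and PBS, for the most part in opposite directions. Of the 29 rows, 11 rose (37.9%), against 14% of all genes tested, and 8 fell (27.6%), against 14.6% of all genes. The members were chosen with earlier results of these data known, so these shares are a description and not a test of the set. The median change of the rows was 0.13 and that of all genes was 0.02. Of 11 rows for beta-oxidation enzymes 7 rose and 0 fell, with a median change of 0.41. Of 6 rows for receptors and coactivators 1 rose and 4 fell, with a median change of -0.83. These 4 include both rows of pparab, so the counts and the median are by row and not by gene. The carnitine shuttle and fatty acid carriers had 3 of 6 rows that rose and 1 that fell, and the fuel-switch genes had 0 of 6 that rose and 3 that fell. The PBS libraries also changed from 0.5 to 4 hpi. Their median changes over time were -0.25 for the beta-oxidation rows and 0.39 for the receptors and coactivators.

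**Figure D1:**
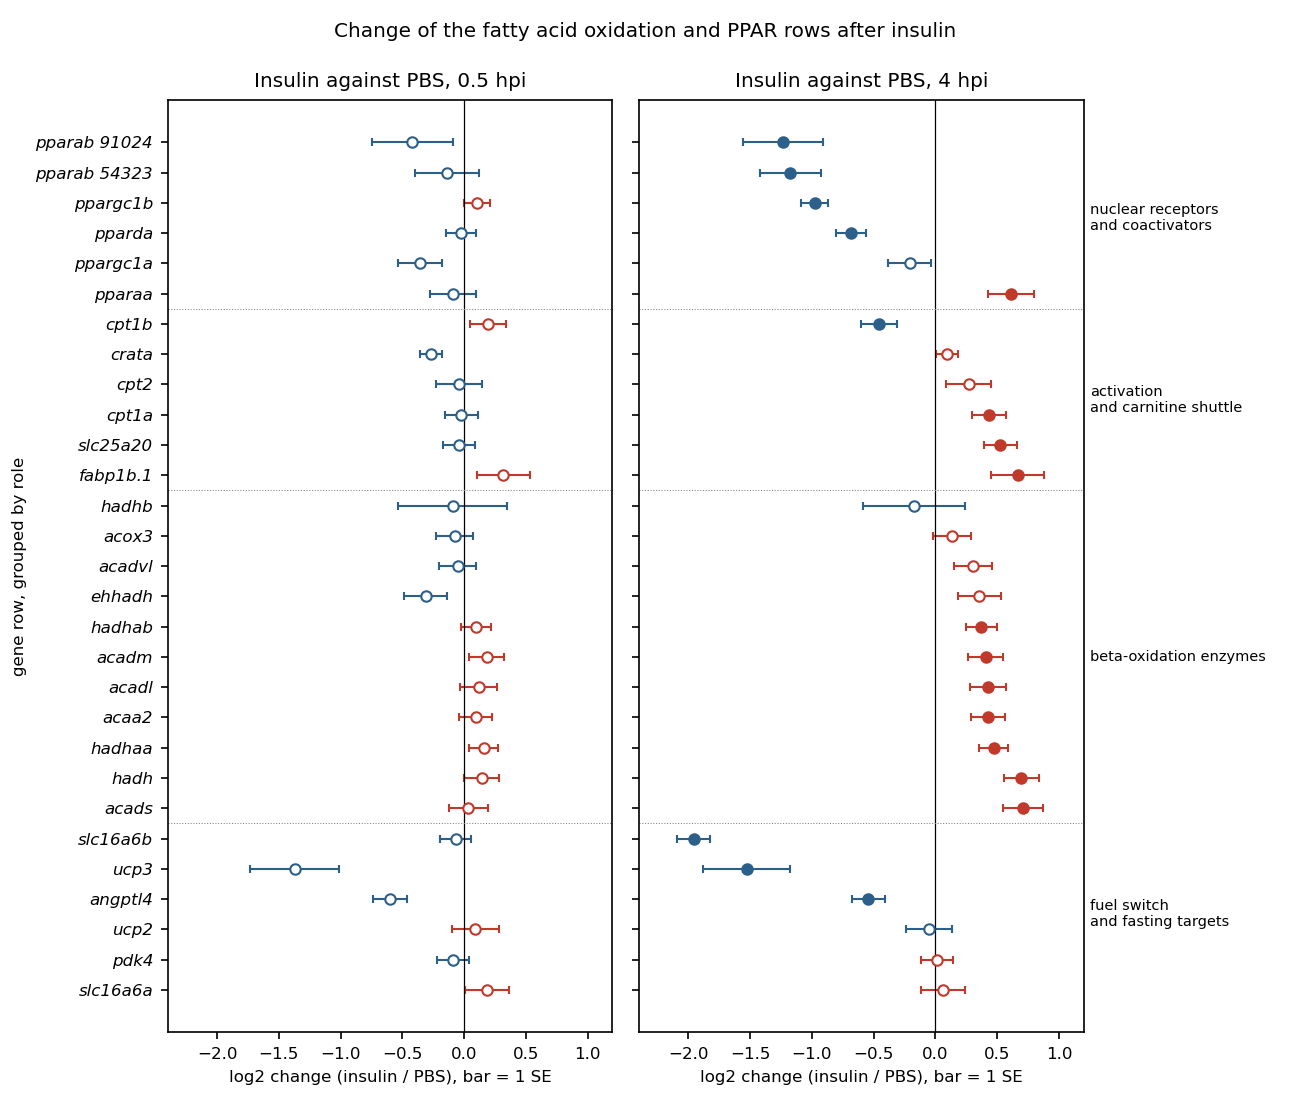
Log2 change of each of the 29 rows after insulin at 0.5 hpi (left) and 4 hpi (right), with a bar of 1 SE on each side, grouped by role. Filled points passed an adjusted p of 0.05 over all genes, and numbers after pparab end its gene ID. At 4 hpi 11 filled points lie to the right of 0 and 8 to the left, and at 0.5 hpi all 29 points are open.

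Among the regulators, ppargc1b, which encodes the coactivator PGC-1 beta, held 129, 129.8, 125 and 131 CPM in the PBS libraries at 4 hpi. After insulin its levels were 52.7, 71.1, 70.7 and 66.9 CPM. Every insulin library was thus below every PBS library, and the insulin mean was 50.7% of the PBS mean. The change was -0.98 ± 0.11 (adjusted p = 3.89e-06). At 0.5 hpi the levels were 87.3, 105, 104 and 118 CPM in PBS and 102, 111, 121 and 111 CPM in insulin, which overlap, with a change of 0.10 ± 0.11 (adjusted p = 0.753). The insulin effect differed between the times, with a log2 difference of -1.08 ± 0.15 (adjusted p = 0.000183). Its paralog ppargc1a, for PGC-1 alpha, held 28.7 ± 6.14 CPM in PBS and 24.9 ± 3.98 CPM in insulin at 4 hpi, with a change of -0.21 ± 0.17 (adjusted p = 0.384).

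The receptor gene pparda, 1 of the zebrafish genes for PPAR delta, had 25, 27.8, 25.6 and 23.6 CPM in PBS and 16.8, 15.8, 17.2 and 13.8 CPM in insulin at 4 hpi. The groups did not overlap, and the change was -0.68 ± 0.12 (adjusted p = 0.000447). At 0.5 hpi its levels were 17.6, 18.2, 20.3 and 17.6 CPM in PBS and 14.5, 17.2, 20.3 and 20.2 CPM in insulin, groups that overlap, with a change of -0.03 ± 0.12 (adjusted p = 0.958). The effect at 4 hpi was lower than that at 0.5 hpi, with a log2 difference of -0.66 ± 0.17 (adjusted p = 0.0202).

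The copies of the PPAR alpha gene went opposite ways at 4 hpi. The row pparab with the ID ENSDARG00000054323 held 5.85, 6.73, 5.5 and 7.26 CPM in PBS and 2.82, 2.17, 2.8 and 3.55 CPM in insulin, with no overlap, and fell, with a change of -1.17 ± 0.25 (adjusted p = 0.00188). The second pparab row, ENSDARG00000091024, also on chromosome 25, held 3.19, 4.38, 3.08 and 3.33 CPM in PBS and 1.21, 1.19, 1.33 and 2.32 CPM in insulin, again with no overlap, and fell, with a change of -1.23 ± 0.32 (adjusted p = 0.00784). These rows carry 1 symbol and were not summed, so they are not independent measurements of 2 genes. The other copy, pparaa, had 3.33, 6.42, 6.16 and 6.3 CPM in PBS and 8.31, 9.53, 8.39 and 7.88 CPM in insulin. Here the insulin libraries were all above the PBS libraries, and the change was 0.61 ± 0.19 (adjusted p = 0.0198). That rise did not pass without the low first PBS library, where the change was 0.42 with an adjusted p of 0.0712. Without insulin replicate 2 it was 0.55 with an adjusted p of 0.0558. For none of these 3 rows did the effects at 0.5 and 4 hpi differ by the test. The adjusted p values were 0.0731 for ENSDARG00000054323, 0.278 for ENSDARG00000091024 and 0.0994 for pparaa.

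**Figure D2:**
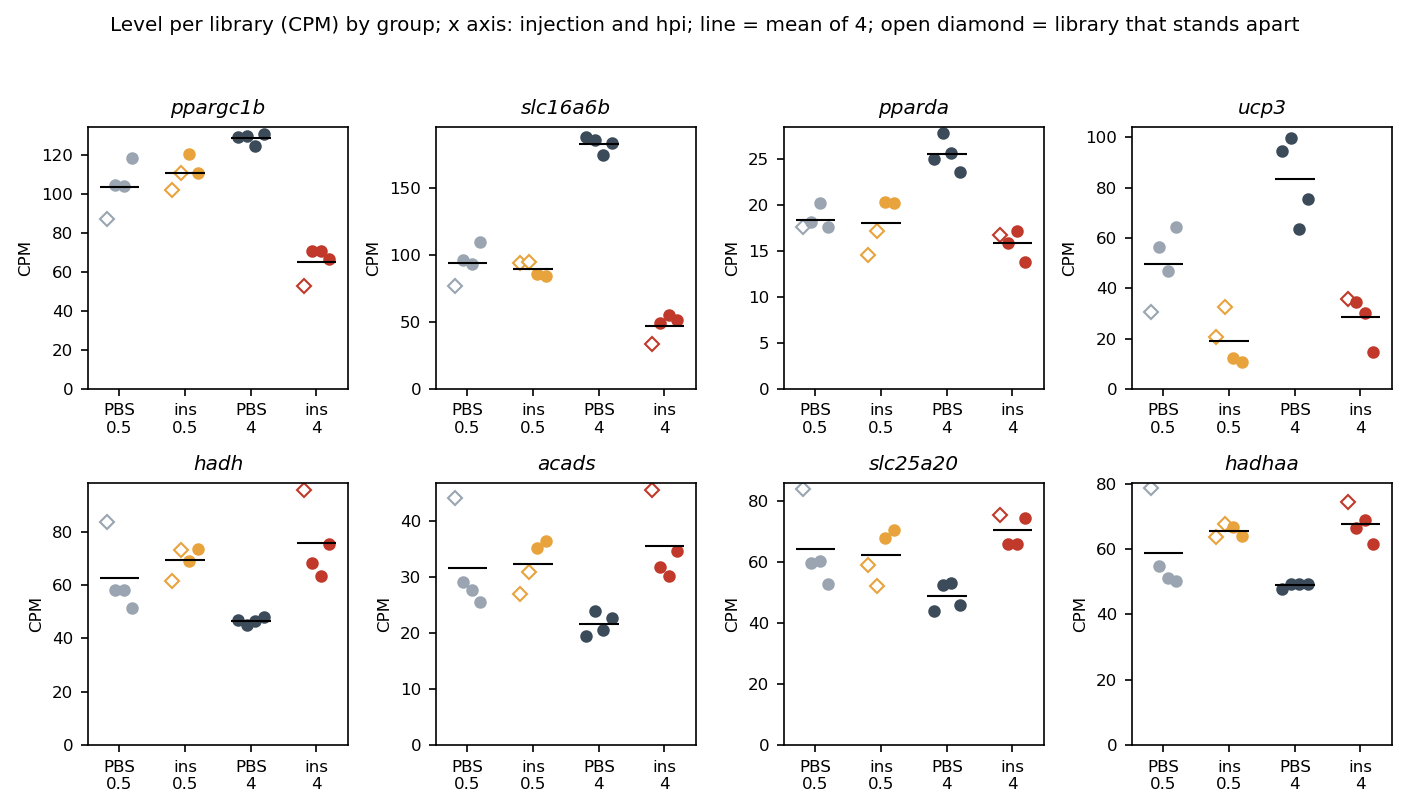
CPM of 8 genes in each of the 16 libraries, by injection and hpi, from 0. The line is the mean of 4 libraries, and open diamonds are the libraries that stand apart. In the upper row the insulin libraries at 4 hpi lie below all PBS libraries at 4 hpi, and in the lower row they lie above them.

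In the fuel-switch group the largest change of the 29 rows was that of slc16a6b, on chromosome 3. It encodes a monocarboxylate transporter whose zebrafish paralog, Slc16a6a, exports ketone bodies from the liver in fasting. Its levels at 4 hpi were 188, 186, 175 and 183 CPM in PBS and 33.5, 48.9, 54.8 and 51.1 CPM in insulin, far apart, with the insulin mean at 25.7% of the PBS mean. The change was -1.96 ± 0.13 (adjusted p = 7.87e-09). At 0.5 hpi the levels were 76.3, 96.3, 93.3 and 109 CPM in PBS and 93.6, 94.2, 85.5 and 84.2 CPM in insulin, with a change of -0.07 ± 0.13 (adjusted p = 0.877), and the effects at the 2 times differed by -1.89 ± 0.18 (adjusted p = 2.6e-06). The paralog slc16a6a held 20.1 ± 2.29 CPM in PBS and 21 ± 5.88 CPM in insulin at 4 hpi, with a change of 0.06 ± 0.18 (adjusted p = 0.821).

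ucp3, an uncoupling protein gene that muscle expresses in mammals, held 94.4, 99.9, 63.7 and 75.5 CPM in PBS and 35.8, 34.5, 30.2 and 14.5 CPM in insulin at 4 hpi. The groups did not overlap, and it fell, with a change of -1.53 ± 0.35 (adjusted p = 0.00609). At 0.5 hpi the levels were 30.4, 56.2, 47 and 64.3 CPM in PBS and 20.8, 32.6, 12.2 and 10.7 CPM in insulin. Here only the first PBS library and the second insulin library cross, and the change of -1.37 ± 0.36 (adjusted p = 0.113) did not pass. Its neighbour on chromosome 10, ucp2, had 313, 332, 328 and 332 CPM in PBS and 463, 257, 272 and 268 CPM in insulin at 4 hpi. Its first insulin library was the highest of all 16 and the other 3 were below every PBS library at that time, with a change of -0.05 ± 0.19 (adjusted p = 0.861).

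angptl4 encodes a secreted inhibitor of lipoprotein lipase and is a PPAR target induced by fasting in mammals. It held 171, 169, 126 and 113 CPM in PBS and 102, 103, 93.6 and 98.1 CPM in insulin at 4 hpi, with no overlap, and fell, with a change of -0.54 ± 0.14 (adjusted p = 0.00617). At 0.5 hpi it held 136, 160.1, 152 and 151 CPM in PBS and 117, 112, 83.5 and 82.4 CPM in insulin. These groups did not overlap either, but the change of -0.60 ± 0.14 (adjusted p = 0.0585) did not pass over all genes, and the effects at the 2 times differed by 0.06 ± 0.19 (adjusted p = 0.875). pdk4, whose kinase shuts off pyruvate dehydrogenase, held 26.2 ± 2.19 CPM in PBS and 26.4 ± 5.39 CPM in insulin at 4 hpi, a change of 0.01 ± 0.13 (adjusted p = 0.953).

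In the beta-oxidation spiral the acyl-CoA dehydrogenases take the first step, each for a range of chain lengths. For acads, the short-chain enzyme, the levels at 4 hpi were 19.6, 23.9, 20.6 and 22.7 CPM in PBS and 45.6, 31.9, 30.2 and 34.6 CPM in insulin, with no overlap and a change of 0.71 ± 0.16 (adjusted p = 0.00341). The medium-chain gene acadm had 154, 132, 126 and 132 CPM in PBS and 237, 166, 149 and 169 CPM in insulin, which overlap, since the highest PBS library exceeded the third insulin library, and rose by 0.41 ± 0.14 (adjusted p = 0.0352). acadl, for the long-chain enzyme, had 57.2, 51.4, 57.5 and 54.4 CPM in PBS and 102, 63.2, 59.5 and 71.8 CPM in insulin, with all insulin libraries above all PBS libraries, and rose by 0.43 ± 0.15 (adjusted p = 0.0367). The very-long-chain gene acadvl had 162, 151, 148 and 132 CPM in PBS and 257, 159, 161 and 157 CPM in insulin. These overlap, and the change of 0.31 ± 0.15 (adjusted p = 0.136) did not pass.

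For the later steps, hadh encodes the short-chain 3-hydroxyacyl-CoA dehydrogenase. It held 46.8, 45.2, 46.4 and 48.2 CPM in PBS and 95.9, 68.1, 63.3 and 75.2 CPM in insulin at 4 hpi, with the insulin mean at 162% of the PBS mean, no overlap and a change of 0.70 ± 0.14 (adjusted p = 0.00119). hadhaa and hadhab encode the alpha subunit of the trifunctional protein, which works on long chains. hadhaa held 47.6, 49.2, 49.4 and 49.1 CPM in PBS and 74.4, 66.3, 68.9 and 61.5 CPM in insulin, and hadhab 113, 105, 96.5 and 104 CPM in PBS and 159, 132, 128 and 123 CPM in insulin. In both copies every insulin library was above every PBS library, and the changes were 0.47 ± 0.12 (adjusted p = 0.00614) and 0.37 ± 0.12 (adjusted p = 0.03). acaa2, for the mitochondrial thiolase that closes the cycle, held 90.7, 90.1, 87 and 89.8 CPM in PBS and 148, 114, 106 and 112 CPM in insulin, again with no overlap, and rose by 0.43 ± 0.14 (adjusted p = 0.025).

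A row named hadhb, after the beta subunit of the trifunctional protein, held 1.05 to 4.92 CPM and 8 to 37 reads a library, with a change of -0.17 ± 0.42 (adjusted p = 0.779) at 4 hpi. Its gene ID is not in the table of names used here, which pairs HADHB with another ID. The peroxisomal members were ehhadh, for the bifunctional enzyme, and acox3, for an acyl-CoA oxidase. At 4 hpi their changes of 0.36 ± 0.17 (adjusted p = 0.127) and 0.13 ± 0.15 (adjusted p = 0.539) did not pass.

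**Figure D3:**
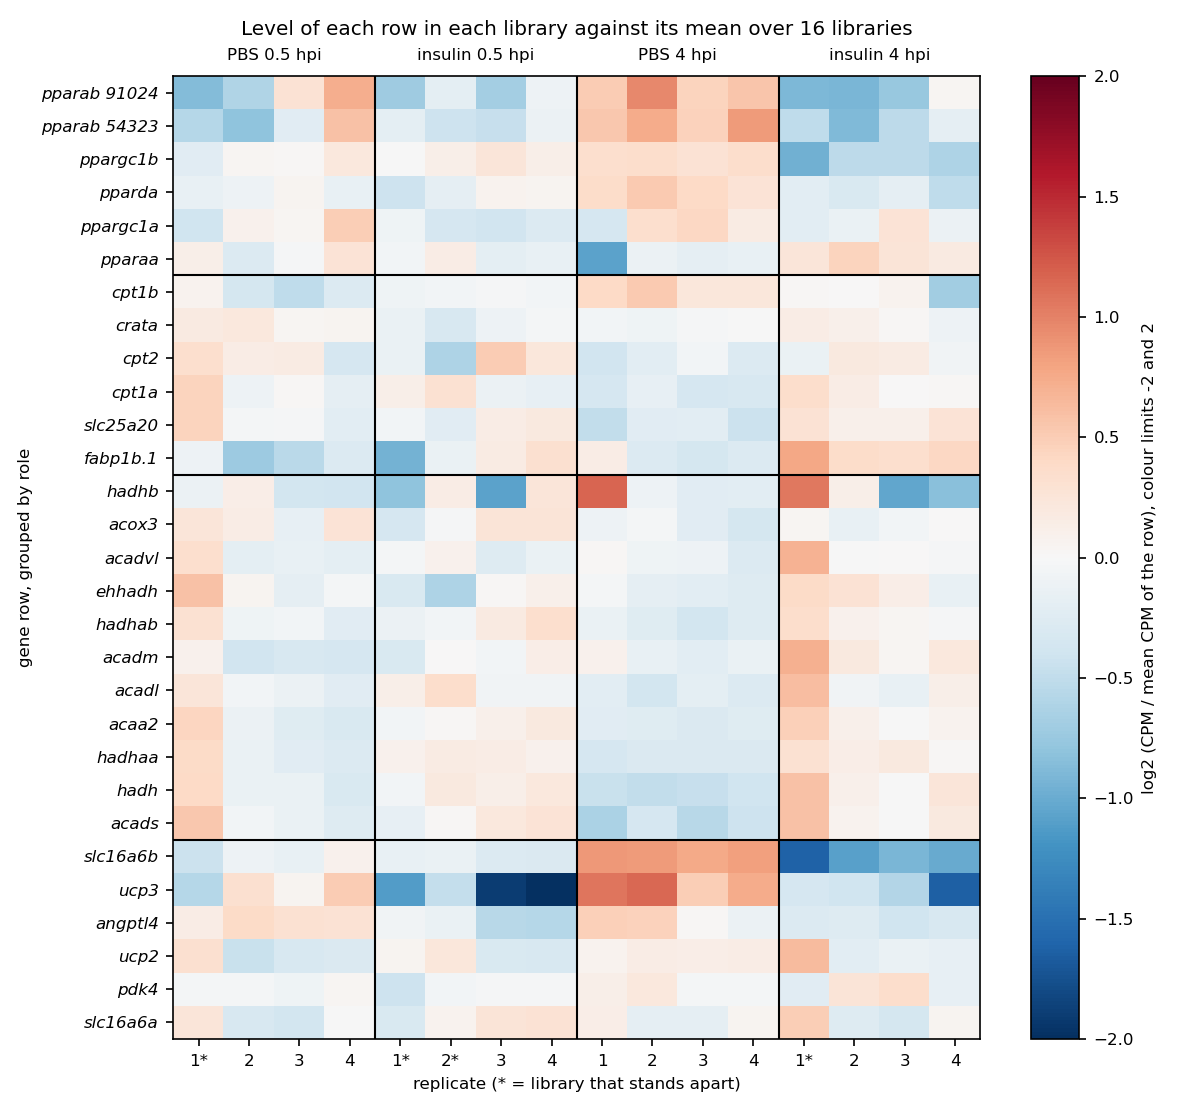
Level of each of the 29 rows in each of the 16 libraries, as log2 of its CPM over the mean CPM of the row, with colours held at a log2 of -2 and 2. Most beta-oxidation rows are at their highest in insulin 4 hpi replicate 1 (median 0.59) and are high in PBS 0.5 hpi replicate 1 (median 0.34), both marked as libraries that stand apart.

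Carriers bring fatty acids to this machinery. The fatty acid binding protein gene fabp1b.1 held 95.9, 71.7, 67.7 and 71.6 CPM in PBS and 149, 113, 109 and 116 CPM in insulin at 4 hpi, with no overlap, and rose by 0.67 ± 0.21 (adjusted p = 0.0271). slc25a20, the carnitine-acylcarnitine carrier of the inner membrane, held 43.8, 52.4, 53.1 and 45.8 CPM in PBS and 75.2, 66, 65.8 and 74.5 CPM in insulin, also with no overlap, and rose by 0.53 ± 0.13 (adjusted p = 0.00577). crata, a carnitine acetyltransferase gene, held 42.9 ± 1 CPM in PBS and 45.8 ± 3.39 CPM in insulin, with a change of 0.10 ± 0.09 (adjusted p = 0.444).

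Carnitine palmitoyltransferase 1 forms the carnitine esters at the outer membrane, and its rows split. cpt1a, named for the form of mammalian liver, held 25.5, 28.7, 25.6 and 25.8 CPM in PBS and 41.2, 36, 32.6 and 33.1 CPM in insulin, with no overlap, and rose by 0.43 ± 0.14 (adjusted p = 0.0221). cpt1b, named for the form of mammalian muscle, held 36.8, 40.4, 32.7 and 32.6 CPM in PBS and 28.6, 28.3, 29.4 and 17.3 CPM in insulin, with every insulin library lower, and fell, with a change of -0.46 ± 0.15 (adjusted p = 0.0253). That fall did not pass without PBS replicate 2 (change -0.39, adjusted p = 0.0887) or without insulin replicate 4 (change -0.31, adjusted p = 0.0843). The effects on cpt1a at the 2 times had a difference of 0.46 ± 0.19 (adjusted p = 0.138), which did not pass in the fit of all libraries.

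The row for cpt2, the partner enzyme at the inner membrane, differed from the other members in its reads. It took 14096 to 30352 reads a library, or 1636 to 3547 CPM, a spread of 2.17-fold over the 16 libraries. In the order of genes of the RefSeq table (assembly GRCz12tu), cpt2 lies near the cartilage collagen gene col2a1a on chromosome 8. The ratio of cpt2 to col2a1a reads stayed between 1.11 and 1.37 over the libraries, a spread of 1.23-fold, while that of cpt2 to slc25a20 went from 30.2 to 52.3, a spread of 1.73-fold. At 4 hpi the ratio to col2a1a was 1.21, 1.18, 1.15 and 1.196 in PBS and 1.359, 1.268, 1.309 and 1.374 in insulin, without overlap. At 0.5 hpi it was 1.115, 1.151, 1.154 and 1.241 in PBS and 1.19, 1.317, 1.127 and 1.154 in insulin, which overlap. The ratio was not constant over the reads of col2a1a. It was 1.317 in the library with the fewest (10700) and 1.127 in that with the most (26934). Whether collagen reads were counted in the cpt2 row was not tested. The values of this row are therefore given without a statement on cpt2 itself. Its change at 4 hpi was 0.27 ± 0.18 (adjusted p = 0.282).

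**Figure D4:**
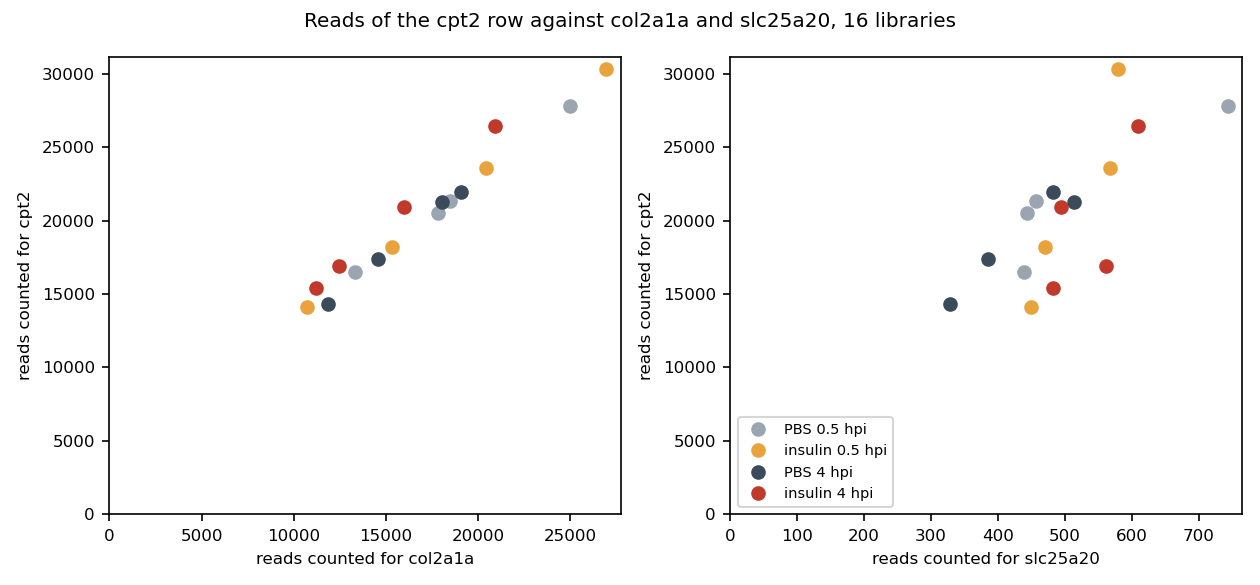
Reads of the cpt2 row in the 16 libraries against reads of col2a1a (left) and of slc25a20 (right), coloured by group. The points on the left lie close to a line that does not pass through the origin, with a ratio of 1.11 to 1.37. Those on the right spread more widely. At 4 hpi the ratio on the left was 1.15 to 1.21 in PBS and 1.268 to 1.374 in insulin.

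Of the 8 symbols without a row, 4 could be tied to rows under other names, by gene ID or by a synonym. pdk2, tied to pdk2b, encodes a kinase that inhibits pyruvate dehydrogenase, and held 249, 205, 139 and 179 CPM in PBS and 77.8, 69.7, 79.5 and 28 CPM in insulin at 4 hpi. These groups did not overlap, and pdk2 fell, with a change of -1.60 ± 0.32 (adjusted p = 0.00275). At 0.5 hpi it held 83.4, 141, 138 and 194 CPM in PBS and 49.4, 80.5, 53.6 and 45.9 CPM in insulin, also without overlap, with a change of -1.28 ± 0.32 (adjusted p = 0.104) that did not pass. In the edgeR fit without the libraries that stand apart, its change at 0.5 hpi was -1.68 (adjusted p = 0.0354), which passed. The row named CPT1A (3 of 3), tied to cpt1ab, had a change of -0.22 ± 0.10 (adjusted p = 0.107) at 4 hpi, which did not pass. The long-chain acyl-CoA synthetase rows acsl1, tied to acsl1a, and ACSL1 (1 of 2), tied to acsl1b, had changes of 0.00 ± 0.09 (adjusted p = 0.99) and 0.27 ± 0.13 (adjusted p = 0.12), and neither passed.

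At 0.5 hpi 0 of the 29 rows rose and 0 fell, beside 0.166% and 0.222% of all genes. At an unadjusted p under 0.05 there were 3 rows, and 2809 genes in all, and DESeq2 called 2 rows as lower, angptl4 (-0.62, adjusted p = 0.00354) and ucp3 (-1.40, adjusted p = 0.0149). Over all genes DESeq2 called 343 of 21650 as lower at this time. The first PBS library and the first 2 insulin libraries at this time are among those that stand apart. Without all 4 such libraries, which left 3 PBS libraries (the near-identical pair among them) and 2 insulin libraries at 0.5 hpi, 8 rows rose, against 6.38% of all genes, and 2 fell, against 6.54%. The rows that rose in that fit were hadh (0.33), acads (0.37), acaa2 (0.34), acadm (0.37), hadhaa (0.31), hadhab (0.36), fabp1b.1 (0.73) and slc16a6a (0.47). Those that fell were angptl4, with a change of -0.92 and an adjusted p of 0.000207, and ucp3, with a change of -2.31 and an adjusted p of 0.0049.

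At 4 hpi the same 12 libraries gave 12 rows that rose, against 17.4% of all genes, and 9 that fell, against 17.8%. These were the same 11 and 8 rows with cpt2 (0.33) and ucp2 (-0.29) added. The reservation on the reads of the cpt2 row holds here too, and col2a1a changed by 0.18 (adjusted p = 0.403) in that fit. In that fit the changes of ppargc1b and slc16a6b were -0.88 and -1.82, and those of hadh and acads were 0.57 and 0.57.

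Some calls at 4 hpi depended on which libraries were in the fit. Without insulin replicate 1, which stands apart and had the highest beta-oxidation levels, 5 rows rose (hadh, acads, hadhaa, slc25a20 and pparaa) in place of 11. Over all genes 2229 of 21894 rose in that fit, in place of 3035 of 21650. The changes were then 0.31 for acaa2, 0.24 for acadl, 0.25 for acadm, 0.29 for hadhab, 0.36 for cpt1a and 0.56 for fabp1b.1, with adjusted p values of 0.0667 to 0.168. Leaving out PBS replicate 1, 2, 3 or 4 left 7, 6, 5 and 5 rows that rose, with adjusted p values of 0.0526 to 0.0972 for the rows that were lost. Over all genes 2028, 2077, 2352 and 2170 rose in these fits. Apart from pparaa, whose values are given above, the lost rows changed little in size in these fits. The changes were 0.40 to 0.43 for acaa2, 0.39 to 0.43 for acadl, 0.36 to 0.39 for acadm, 0.40 to 0.41 for cpt1a, 0.60 to 0.63 for fabp1b.1 and 0.32 to 0.38 for hadhab. acadl did not pass without insulin replicate 4 either, at 0.44 with an adjusted p of 0.0592. The 7 to 8 rows that fell at 4 hpi in these fits always held ppargc1b, pparda, both rows of pparab, slc16a6b, ucp3 and angptl4.

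The file headers name a sequencing lane for some libraries. Lane 2 is named only for PBS and lane 6 only for insulin at 0.5 hpi. Lane 5 is named only for libraries of 4 hpi, and lane 7 only for insulin at 4 hpi. Among libraries with a named lane, lane and time therefore cannot be told apart. Within lane 5, which holds PBS replicates 2, 3 and 4 and insulin replicates 1 and 3 at 4 hpi, 6 rows rose and 6 fell. Of all 21515 genes tested in that fit, 1242 rose and 1710 fell. The rows that rose were hadh, acads, hadhaa, hadhab, slc25a20 and fabp1b.1, and angptl4 (-0.48, adjusted p = 0.0949), cpt1b (-0.29, adjusted p = 0.205) and pparaa (0.40, adjusted p = 0.172) did not pass there. acaa2 (0.50, adjusted p = 0.0526), acadm (0.56, adjusted p = 0.0678), acadl (0.56, adjusted p = 0.0873) and cpt1a (0.46, adjusted p = 0.0692) did not pass either, with changes at least as large as in the fit of all libraries. Lane 5 includes insulin replicate 1, which stands apart. In the fit of all libraries but that one, the changes of acaa2, acadm, acadl and cpt1a were 0.31, 0.25, 0.24 and 0.36.

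The interaction contrast asked whether insulin acted differently at 4 hpi than at 0.5 hpi. By it, 0 rows had a higher effect at 4 hpi, beside 3.83% of all genes, and 3 rows had a lower one (10.3%), beside 5.76% of all genes. These 3 were slc16a6b, ppargc1b and pparda, with the differences given above. Of the rows that did not pass, cpt1b came nearest to the threshold, with a lower effect at 4 hpi (-0.65 ± 0.21 (adjusted p = 0.054)). Next were slc25a20 at 0.57 ± 0.18 (adjusted p = 0.056) and acads at 0.67 ± 0.23 (adjusted p = 0.0674), with higher effects at 4 hpi. Without the 4 libraries that stand apart, slc16a6b, ppargc1b and pparda passed again, and cpt1a, cpt1b and slc16a6a passed too. Over all genes 1317 were higher and 1563 lower of 22003 in that fit. There the median changes of the beta-oxidation rows were 0.308 at 0.5 hpi and 0.294 at 4 hpi. The median of their differences was 0.124, beside 0.315 in the fit of all 16 libraries. At an unadjusted p under 0.05 there were 12 of the 29 rows, and 5604 of all 21650 genes.

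The PBS libraries themselves differed between 0.5 and 4 hpi. Of the 29 rows 4 were higher at 4 hpi (13.8%), against 7.96% of all genes, and 3 were lower (10.3%), against 5.65% of all genes. This comparison shares the PBS libraries of 4 hpi with the insulin comparison at that time, so the values are given side by side. For pparda the means at 0.5 and 4 hpi were 18.39 and 25.5 CPM in PBS and 18.06 and 15.88 CPM in insulin. Those of cpt1b were 23.55 and 35.61 CPM in PBS and 26.98 and 25.89 CPM in insulin. Those of hadh were 62.8 and 46.64 CPM in PBS and 69.29 and 75.63 CPM in insulin. Those of ppargc1b were 103.6 and 128.8 CPM in PBS and 111.1 and 65.35 CPM in insulin. slc16a6b went from 93.8 ± 13.5 CPM to 183 ± 5.76 CPM in PBS, a rise of 0.96 ± 0.13 (adjusted p = 7.61e-05), beside 89.4 ± 5.26 and 47.1 ± 9.35 CPM in insulin. pparda rose in PBS by 0.47 ± 0.12 (adjusted p = 0.0126), cpt1b by 0.59 ± 0.15 (adjusted p = 0.0108) and the pparab row ENSDARG00000054323 by 0.81 ± 0.24 (adjusted p = 0.0303). Its levels at 0.5 hpi were 2.71, 2.29, 3.42 and 6.01 CPM in PBS and 3.51, 3.02, 2.92 and 3.72 CPM in insulin. For cpt1b these were 29.4, 21.9, 19.6 and 23.2 CPM and 26.3, 27, 27.7 and 26.9 CPM, so that its PBS libraries of 4 hpi were the highest of the 16.

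The rise of pparda over time did not pass without PBS 4 hpi replicate 2 (0.43, adjusted p = 0.0528). That of the pparab row did not pass without PBS 0.5 hpi replicate 1, 2 or 3 or PBS 4 hpi replicate 2 or 4, at 0.65 to 0.78 with adjusted p values of 0.0758 to 0.105. Nor did it pass with the near-identical pair summed (0.74, adjusted p = 0.0683) or with only the groups compared (0.80, adjusted p = 0.0558).

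The genes that were lower in PBS at 4 hpi were acads, hadh and slc25a20. At 0.5 hpi hadh held 83.5, 58.1, 58.2 and 51.4 CPM in PBS and 61.5, 73.1, 69 and 73.6 CPM in insulin, acads 44.1, 29.1, 27.8 and 25.5 CPM and 27.1, 31, 35.2 and 36.6 CPM, and slc25a20 83.9, 59.8, 60.1 and 52.8 CPM and 58.9, 52.2, 67.8 and 70.3 CPM. In each of the 3 the first PBS library was the highest at that time. For hadh, acads and slc25a20 the changes over time were -0.43 ± 0.14 (adjusted p = 0.0454), -0.54 ± 0.16 (adjusted p = 0.0324) and -0.40 ± 0.13 (adjusted p = 0.0499). Of 26 alternative fits, 13 did not pass for hadh, 5 for acads and 20 for slc25a20, with the direction kept in all. Without PBS 0.5 hpi replicate 1 the changes of hadh, acads and slc25a20 were -0.27, -0.34 and -0.25, and 0 rows passed as lower. Leaving out any 1 PBS library of 4 hpi also left 0 rows that passed as lower, though the changes stayed at -0.44 to -0.42 for hadh, -0.59 to -0.48 for acads and -0.43 to -0.33 for slc25a20.

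The other members that passed at 4 hpi had these levels at 0.5 hpi. fabp1b.1 held 81.2, 52.6, 59.6 and 71.9 CPM in PBS and 45.2, 79.4, 97.5 and 109 CPM in insulin, with the first insulin library the lowest and the last the highest. cpt1a held 44.1, 30.3, 32.8 and 28.5 CPM in PBS and 35, 39.9, 29.8 and 29 CPM in insulin, and pparaa 7.55, 5.79, 6.84 and 8.42 CPM and 6.76, 7.78, 6.08 and 6.32 CPM, with overlap in both. hadhaa held 78.7, 54.8, 51.2 and 50.0 CPM in PBS and 63.8, 67.7, 66.7 and 63.8 CPM in insulin, where the first PBS library was above all insulin libraries and the others were below them. For hadhab the levels were 153, 118, 119.7 and 107 CPM in PBS and 115, 119.9, 140.5 and 157 CPM in insulin, and for acaa2 143, 98.6, 90.3 and 86.2 CPM and 103, 108, 114 and 122 CPM. In acaa2, as in hadhaa, the first PBS library was above all insulin libraries and the others were below them. acadm held 154, 112, 117 and 116 CPM in PBS and 118, 147, 141 and 160.0 CPM in insulin, and acadl 78.4, 63.4, 61 and 56.3 CPM and 71.3, 84.6, 62.8 and 62.6 CPM, with overlap in both. The changes of acaa2, acadm, acadl and hadhab at 0.5 hpi were 0.09, 0.18, 0.12 and 0.10, and that of crata was -0.27 ± 0.09 (adjusted p = 0.186). The pparab row ENSDARG00000091024 held 1.24, 1.48, 2.76 and 3.73 CPM in PBS and 1.38, 1.97, 1.4 and 2.11 CPM in insulin, again with overlap.

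Beyond the 29 rows, a list of 158 symbols of fatty acid use and of related metabolism and regulation was read. Of these 135 were present, and 134 rows were tested. At 4 hpi 31 of these rose (23.1%) and 16 fell (11.9%), beside 14% and 14.6% of all genes, with a median change of 0.20, and at 0.5 hpi 0 rose and 0 fell. Of 18 helpers of mitochondrial oxidation, a list that also holds genes of amino acid breakdown, 10 rose and 0 fell. They include etfdh, which passes the electrons of the dehydrogenases to the respiratory chain, at 0.54 ± 0.14 (adjusted p = 0.00865), pccb, of propionyl-CoA carboxylase, at 0.48 ± 0.11 (adjusted p = 0.00332), and ivd, of leucine breakdown, at 0.46 ± 0.12 (adjusted p = 0.00988). Of 17 peroxisomal genes 6 rose and 2 fell. Among these hsd17b4, of peroxisomal beta-oxidation, and abcd3a, a peroxisomal transporter gene, rose by 0.44 ± 0.11 (adjusted p = 0.00456) and 0.51 ± 0.13 (adjusted p = 0.00617).

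PPAR partners had 3 of 26 rows that rose and 6 that fell. lpin1, a phosphatidate phosphatase that also coactivates PPAR alpha in mice, fell from 112 ± 11.7 CPM to 25.1 ± 6.74 CPM, a change of -2.15 ± 0.20 (adjusted p = 7.13e-07). rxrab, a copy of the retinoid X receptor alpha that pairs with PPARs, fell, with a change of -1.50 ± 0.31 (adjusted p = 0.0015), and esrrga, an estrogen-related receptor gamma gene, rose by 0.53 ± 0.10 (adjusted p = 0.000598). Of 25 rows for uptake and activation 3 rose and 2 fell. acsl4a, a long-chain acyl-CoA synthetase, fell, with a change of -0.92 ± 0.12 (adjusted p = 2.69e-05), as did acss1, the mitochondrial acetyl-CoA synthetase, with -0.54 ± 0.17 (adjusted p = 0.0222), and the synthetase acsl5 rose by 0.70 ± 0.22 (adjusted p = 0.0246).

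In the pyruvate dehydrogenase complex 3 of 10 rose and 0 fell, namely dlat (0.50 ± 0.12), pdhb (0.48 ± 0.13) and pdhx (0.58 ± 0.17). Of 9 genes of malonyl-CoA control 2 rose and 1 fell, with changes of 0.49 ± 0.12 for acaca, which makes malonyl-CoA, 0.56 ± 0.12 for prkab1a and -1.22 ± 0.32 for prkaa2, subunits of the AMP-activated kinase. Of 7 genes of lipolysis and lipid droplets lipg (-0.58 ± 0.14) and the droplet coat gene plin2 (-0.78 ± 0.25) fell. Ketone metabolism had 1 of 9 that rose and 1 that fell, aacs (-0.40 ± 0.14). Of 6 genes listed under carnitine 1 rose, cratb (0.62 ± 0.17), and 1 fell, slc25a29 (-1.43 ± 0.39). Whether each of these acts on carnitine was not examined. Of 7 uncoupling and transport genes 2 rose and 1 fell. Among them slc16a3, a lactate transporter gene, fell, with a change of -1.10 ± 0.15 (adjusted p = 2.76e-05), and slc25a4 (0.57 ± 0.21) rose. Without insulin 4 hpi replicate 1 or without PBS 4 hpi replicate 4, 20 of the 134 rows rose in place of 31. Over all genes 2229 of 21894 and 2170 of 21881 rose in those fits, in place of 3035 of 21650. In lane 5 alone 16 of the 134 rows rose and 9 fell, beside 1242 and 1710 of 21515 genes in all. This list too was written with earlier results known.

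**Figure D5:**
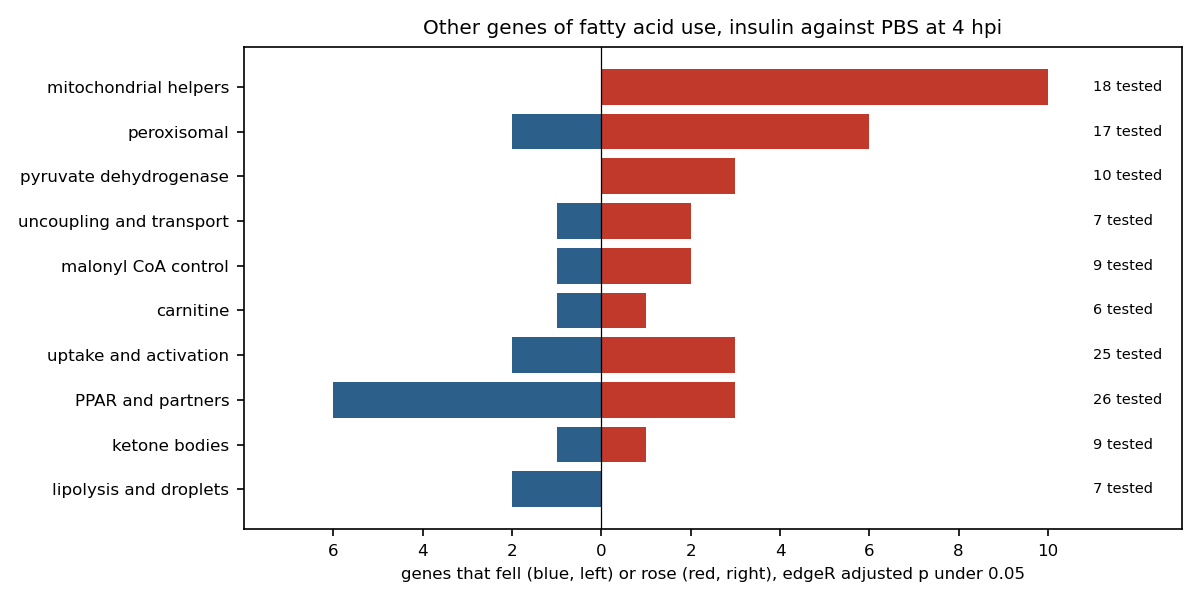
Number of genes of each further list that rose (right) or fell (left) after insulin at 4 hpi, with the number of rows tested. The 18 mitochondrial helpers had 10 that rose and 0 that fell, and the 26 PPAR partners had 3 and 6.

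Markers of tissues that use fatty acids were read in the same libraries. At 4 hpi the summed level of the 14 liver markers that passed the filter, of 15 present, was 4780 to 4927 CPM in PBS. It was 4957 to 9074 CPM in insulin, and 2 of the 14 rose and 1 fell, with a median change of 0.35. The 9 intestine markers summed to 2977 to 3886 CPM in PBS and 3496 to 4943 CPM in insulin, with 4 that rose, 0 that fell and a median change of 0.65. The 11 skeletal muscle markers summed to 35440 to 37600 CPM in PBS and 31580 to 46220 CPM in insulin, with 3 that rose, 2 that fell and a median change of 0.37. These medians stand beside 0.41 for the beta-oxidation rows and 0.02 for all genes. Without insulin 4 hpi replicate 1 the beta-oxidation median was 0.289 and that of all genes 0.008. The marker lists were not read in that fit. The 6 heart markers summed to 144.4 to 184 CPM and 146.7 to 172.4 CPM, with 1 that rose, 1 that fell and a median change of -0.01, and the 10 red cell rows to 2192 to 2621 CPM and 1638 to 4938 CPM, with 0 that rose or fell and a median change of 0.25. In all lists 0 markers were at 0. Their part in the changes of the oxidation genes was not tested.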

How the data were processed

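RNA of 16 zebrafish libraries, 4 in each of 4 groups, was read from the counts that the authors deposited, whole numbers per Ensembl gene in 1 table per library. The genome build was Zv9, per the submitters' processing notes. For the aligner, the counter, the gene models and strand use, the sources used here give nothing. A closing line of each table, with the value 1, was dropped. Library totals were 6535173 to 9628705 counts. Per the labels, each library was a separate pool of 10 embryos.

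Rows were kept with filterByExpr, scaled with TMM factors and fitted with edgeR 4.0.16 (glmQLFit, robust, glmQLFTest, two-sided) in R 4.3.3, with the 4 groups as levels and 12 residual degrees of freedom. CPM is counts per 1000000 of TMM-scaled library size. The 4 comparisons were insulin against PBS at each time, the difference between these, and PBS over time. The model was tested on simulated data. The members, the lists and the 4 libraries that stand apart were chosen with earlier results of these data known. Every member called in 1 of the comparisons is given in full, and of each further list up to 3 called genes of smallest p at 4 hpi. Some genes under this rule are counted but not reported here by name. Alternatives were DESeq2 1.42.0 (Wald test or size factors), limma 3.58.1 voom, library totals without TMM factors, no filter or 10 CPM in 4 libraries, only the groups compared, a replicate block, the near-identical pair summed, the 12 other libraries, and each library left out. The fits within lane 5 and within libraries whose header names no lane were chosen after seeing the data. No promoter or protein sequence was used here.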

Additional observations from a re-analysis of the deposited data

Results flagged for a closer look

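The insulin effect differed between the times, by the edgeR interaction test, for slc16a6b (-1.89), ppargc1b (-1.08) and pparda (-0.66), as log2 differences of 4 hpi minus 0.5 hpi. The other results below are single libraries whose CPM lay far from the other 3 of their group. Such a distance was looked for in 116 sets of 4 libraries and found in 16, and chance gives about 1 in 20.

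Of the 16, 8 fell on libraries that stand apart. In PBS 0.5 hpi replicate 1 these were acadvl (202 CPM), acadm (154 CPM), ucp2 (371.9 CPM) and hadhaa (78.69 CPM), all above the rest of the group. In insulin 4 hpi replicate 1 they were acadvl (257.2 CPM), ucp2 (462.7 CPM) and fabp1b.1 (149.1 CPM), again above the rest. In insulin 0.5 hpi replicate 1 pdk4 was low (18.79 CPM).

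Among the PBS libraries of 4 hpi, replicate 1 was low for pparaa (3.325 CPM) and slightly low for hadhaa (47.61 CPM), and high for fabp1b.1 (95.88 CPM) and hadhb (4.92 CPM), and replicate 2 was high for cpt1a (28.74 CPM). In the insulin libraries of 4 hpi, replicate 4 was low for cpt1b (17.3 CPM) and high for the pparab row ENSDARG00000091024 (2.317 CPM), and replicate 3 was high for ppargc1a (30.77 CPM).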

How the results depend on the processing

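No member that passed changed direction under any alternative that gave a value. At 0.5 hpi, where 0 rows fell, 1 fell with DESeq2 size factors, with no filter, with the 10 CPM filter and with the replicate block, and 2 with the DESeq2 Wald test and in the 12 libraries, where 8 rose. Leaving out 1 library gave 0 to 2 that fell and 0 that rose. Over all genes 48 of 21650 fell at 0.5 hpi. With DESeq2 size factors 62 fell, with no filter 55 of 28517, and with the 10 CPM filter 88 of 13520. The replicate block gave 61, the Wald test 343 and the 12 libraries 1440 of 22003, where 1404 rose. Without 1 library 5 to 567 genes fell and 5 to 420 rose. At 4 hpi 11 rose and 8 fell, with 5 to 11 and 7 to 8 without 1 library, and 6 that rose in lane 5 alone. Over all genes 3035 rose and 3158 fell, with 2028 to 3577 and 2440 to 3658 without 1 library, and 1242 that rose in lane 5 alone. For the difference between times (0 higher, 3 lower) 1 row was higher with DESeq2 size factors and in the 12 libraries, 2 with the 10 CPM filter and 3 with the Wald test, and 5 were lower with the replicate block and in the 12 libraries. Without 1 library it gave 0 to 3 higher and 3 to 4 lower. Over all genes the difference was higher for 830 and lower for 1246. DESeq2 size factors gave 883 higher, the 10 CPM filter 841 of 13520 and the Wald test 1050. The replicate block gave 1392 lower, and the 12 libraries 1317 higher and 1563 lower of 22003. Without 1 library 556 to 1219 genes were higher and 895 to 1721 lower. For PBS over time (4 higher, 3 lower) 8 were higher in the 12 libraries, and 1 was lower with library totals, with voom and with the near-identical pair summed. Without 1 library it gave 2 to 6 higher and 0 to 4 lower. Over all genes 1723 were higher and 1223 lower over time, with 2295 of 22003 higher in the 12 libraries. Library totals gave 732 lower, voom 1189 and the summed pair 776. Without 1 library 1059 to 2402 genes were higher and 645 to 1824 lower. Fitting only the groups compared is the same fit for the difference between times and was not repeated.

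Replicate numbers of the titles were not taken as pairs: for no 2 groups were all 4 correlations of same-numbered deviations from the group means over 0.1. They were 0.073 to 0.55 between PBS 0.5 hpi and insulin 4 hpi, -0.089 to 0.23 between the insulin groups, and -0.177 to 0.214 between the other groups. Over all genes, library totals moved the share of higher calls from 42.9% to 71.6% at 0.5 hpi, from 49% to 38.8% at 4 hpi, from 40% to 22.8% for the difference, whose median change became -0.103, and from 58.5% to 75.3% over time. At 0.5 hpi 84 genes passed, against 495 with the Wald test, 2844 in the 12 libraries, 11 with the pair summed and 0 with only the groups compared or the libraries without a lane. The causes were not tested.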

Other observations

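The other PPAR partners that passed at 4 hpi, outside the rule for named genes and so chosen after their values were seen, went both ways. The receptor gene pparg, known for its part in fat storage, held 6.99 ± 1.65 CPM in PBS and 13.3 ± 2.33 CPM in insulin at 4 hpi, a rise of 0.93 ± 0.21 (adjusted p = 0.00281). nr1h4, the bile acid receptor, held 5.06 ± 0.833 CPM and 8.84 ± 1.51 CPM, a rise of 0.80 ± 0.18 (adjusted p = 0.00341). The retinoid X receptor beta copies rxrba and rxrbb fell, with changes of -0.50 ± 0.11 (adjusted p = 0.00201) and -0.37 ± 0.10 (adjusted p = 0.0102), as did the coactivator genes ncoa2, with -0.42 ± 0.14 (adjusted p = 0.0289), and med1, with -0.35 ± 0.10 (adjusted p = 0.0139). At 0.5 hpi the changes of pparg and nr1h4 were -0.30 and 0.51, those of rxrba, rxrbb, ncoa2 and med1 were 0.27, 0.29, 0.00 and 0.04, and 0 of these 6 passed.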
